A study of Mus musculus with 12 samples.

Results

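5′ leader fragments are small RNAs cut from the stretch that precedes the mature tRNA in a nuclear tRNA precursor. They were taken from the deposited read table by position alone. A sequence counted as a leader fragment when its first listed row fell under a nuclear precursor, carried the subtype Other and lay wholly inside the 40 nt that the precursor sequence holds before the mature tRNA. This gave 731 of 87699 distinct sequences and 4399 of 1705883 reads. They came from 155 of 439 nuclear precursors and 45 isodecoder labels, and were 4.29% of all reads of nuclear precursors. Of the 731 sequences, 721 were listed once, 10 more than once and 2 under more than 1 isodecoder, and 503 had a single read over all libraries.

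All livers were from B6D2F1/Crl males, either wild type (WT) or NSun2-/- (NS-KO). NSUN2 is the methyltransferase that places 5-methylcytosine on tRNAs, and the NS-KO mice carried a CRISPR/Cas9 deletion in the gene in all their cells. Mice labelled as 8 to 12 weeks old received corn oil alone (D0), CCl4 once and were examined at day 3 (D3), or CCl4 repeatedly until day 27 (D27). CCl4 is a solvent that hepatocytes convert into a toxic radical, and 2 mL per kg of a 40% dilution in corn oil was injected. All animals thus shared a strain, a sex and the oil, and each of the 6 groups held 2 libraries, 12 in all. Before ligation the RNA was demethylated at m1A and m3C and its ends were made fit for adapters, so fragments with blocked ends could be read, and reads of 14 to 40 nt were kept. The tables hold tRNA reads only, so neither the liver label nor the loss of NSun2 could be checked against marker genes. In bulk liver, fewer cells of a type and less RNA per cell cannot be told apart.

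A tRNA gene is transcribed by RNA polymerase III from a start site a short way upstream of the mature sequence, and the transcript runs on into a stretch of U. RNase P removes the 5′ leader with a single cut at the first mature base, and RNase Z (ELAC2) removes the 3′ trailer. Released trailers are known as tRF-1 and are the best described small RNAs from precursors, while released leaders are usually degraded quickly. tRNA-His differs from the other tRNAs in that a G is added to its 5′ end after the leader has been cut off. The leader is also the stretch in which identical mature tRNAs differ from each other, so a leader read can name its gene among the tRNA precursors. Reads were aligned to tRNA sequences only, so whether a read called a leader came from elsewhere in the genome was not tested. This limit holds for every isodecoder below, and the names of leader reads rest on their alignment.

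Histidine precursors gave 3782 of the 4399 leader reads (86.0%). Of the 9 precursors of tRNA-His-GTG, 8 had at least 1 leader read, and tRNA-His-GTG-2-8 on chromosome 4 had 0 among 1705883 reads. The leaders of the 8 genes are shown because most results turn on them, together with the aspartate leader that had the most reads outside histidine. They are the 40 nt before the mature tRNA, 5′ to 3′ in the direction of the transcript as the table gives them, and capitals mark the perfectly matching read with the highest count.

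tRNA-His-GTG-2-1: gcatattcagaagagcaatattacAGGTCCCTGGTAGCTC
tRNA-His-GTG-2-3: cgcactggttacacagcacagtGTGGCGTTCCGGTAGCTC
tRNA-His-GTG-2-2: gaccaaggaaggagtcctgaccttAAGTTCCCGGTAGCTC
tRNA-His-GTG-2-7: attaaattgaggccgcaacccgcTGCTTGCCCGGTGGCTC
tRNA-His-GTG-2-5: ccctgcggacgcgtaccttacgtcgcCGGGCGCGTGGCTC
tRNA-His-GTG-2-4: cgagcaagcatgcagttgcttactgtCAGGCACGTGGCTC
tRNA-His-GTG-1-1: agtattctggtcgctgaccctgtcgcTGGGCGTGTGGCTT
tRNA-His-GTG-3-1: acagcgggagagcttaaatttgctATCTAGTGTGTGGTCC
tRNA-Asp-GTC-1-5: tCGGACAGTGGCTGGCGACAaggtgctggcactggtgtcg

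In all 8 histidine leaders the capitals ran to the last base before the mature tRNA, whereas the aspartate read ended 20 nt earlier. The letters GCTC closed 7 of the 9 histidine leaders and 8 of all 439 leaders (1.82%), and anywhere on either strand they were found in 25.1% of the 439. The longer GGTAGCTC closed the leaders of tRNA-His-GTG-2-1, tRNA-His-GTG-2-2 and tRNA-His-GTG-2-3, which were the only 3 of 439 leaders (0.683%) to end on it. The mature sequences of the 6 genes numbered 2 with leader reads were identical, while their leaders were not.

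The genes lie in a pair of clusters of GRCm38, the build on which 370 of the 439 precursors coincide exactly with a tRNA gene of RefSeq. On chromosome 2, tRNA-His-GTG-2-1 (chr2:122375494-122375565, n-THgtg4), tRNA-His-GTG-2-2 (chr2:122377363-122377434, n-THgtg3) and tRNA-His-GTG-2-3 (chr2:122377968-122378039, n-THgtg5) lie inside the span of the long noncoding RNA Gm39918. On chromosome 3, tRNA-His-GTG-2-4 (chr3:96410069-96410140, n-THgtg6) and tRNA-His-GTG-2-7 (chr3:96500366-96500437, n-THgtg8) overlap no other RefSeq gene. Between them, tRNA-His-GTG-3-1 (chr3:96435972-96436043, n-THgtg2) and tRNA-His-GTG-2-5 (chr3:96452495-96452566, n-THgtg7) lie within BC107364, and tRNA-His-GTG-1-1 (chr3:96463972-96464043, n-THgtg1) within the long noncoding RNA Gm10685. tRNA-Asp-GTC-1-5 (chr1:171102371-171102442, n-TDgtc5) overlaps no other gene. Whether these spans are crossed in an exon or an intron, and the strand of each gene, is not in the tables used here.

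Histidine leader reads had sharp ends. The last base of the read was aligned to the last base of the leader (position −1, counted back from the mature tRNA) in 80.6% of the 3782 reads, and to position −2 or −1 in 96.3%. A read with a mismatched last base is counted at the position to which that base was aligned. The first base lay at −18 to −16 in 91.8%, so that 78.2% of the reads were 16 to 18 nt long. The first base depended on the gene, at −16 in 77.8% of reads of tRNA-His-GTG-2-1, at −18 in 76.7% of those of tRNA-His-GTG-2-3 and at −17 in 80.3% of those of tRNA-His-GTG-2-7. The 617 leader reads of all other isodecoders had no such shape. Of these, 14.6% ended at −1, 19.1% at −2 or −1, and 7.62% started at −18 to −16. The plot of leader ends sets the 2 distributions side by side.

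**Figure D1:**
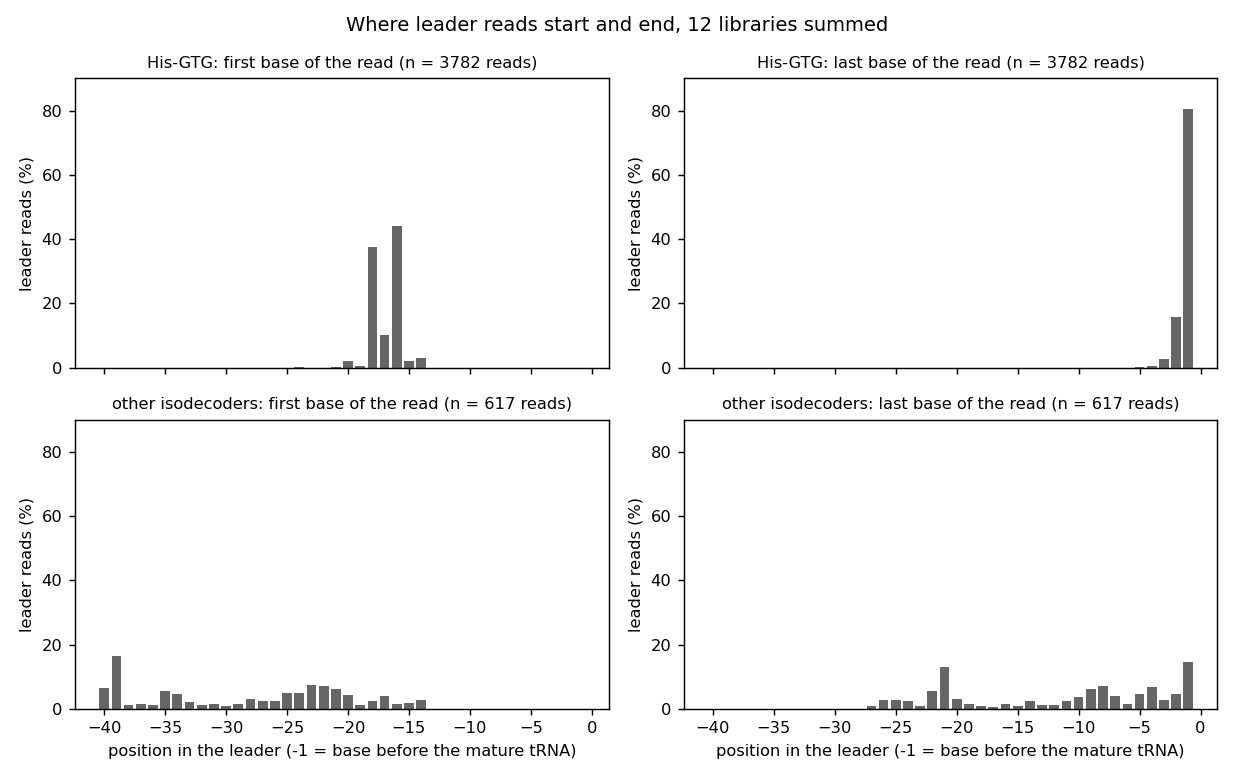
Share of leader reads (%) by the position of the first base (left) and the last base (right) in the leader, where −1 is the base before the mature tRNA, with all 12 libraries summed. Histidine reads (top, 3782 reads) started mostly at −18 to −16 and ended at −1 in 80.6% of cases, while reads of other isodecoders (bottom, 617 reads) were spread over the leader and ended at −1 in 14.6%. Mismatched last bases are counted at their aligned position.

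Precursor reads that had not been cut at the 5′ end of the mature tRNA started at the same bases. These uncut reads start inside the leader and run into the mature sequence. For tRNA-His-GTG-2-1, the starts −16 and −18 held 98.6% of 1903 leader reads and 86.7% of 294 uncut reads. For tRNA-His-GTG-2-3, the starts −18 and −17 held 87.0% of 1253 leader reads and 83.6% of 110 uncut reads. For tRNA-His-GTG-2-7, the starts −17 and −18 held 97.6% of 289 leader reads and 84.2% of 474 uncut reads. tRNA-His-GTG-2-4 differed, with 49.3% of 73 leader reads but 1.79% of 56 uncut reads at its 2 leading leader starts. Of the histidine genes with leader reads, only tRNA-His-GTG-2-7 had more uncut reads than leader reads. Reads under 14 nt were not kept, so leaders that start close to the mature tRNA are missing from these counts. Reads that began on the last leader base itself were kept apart from both. Histidine had 6091 of the 6648 such reads, and 65.1% of them carried G as their first base.

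The last base of leader reads often did not match the gene. The alignment allowed 1 mismatch, and in 36.6% of all leader reads that mismatch was on the last base, with a range of 32.3% to 38.9% over the 12 libraries. In tRF-1 the share was 16.6% to 26.4%, below the lowest leader share in every library. It was 37.2% to 53.9% in tRF-5c, the longest of the tRF-5 classes, which begin at the mature 5′ end, and 10.6% to 20.1% in tRF-3a, the short fragments from the mature 3′ end. For the 16-nt reads of tRNA-His-GTG-2-1 that begin at −16, whose first 15 bases match, the last base was the C of the gene in 556 reads (56.4%), T in 289 (29.3%), A in 128 (12.98%) and G in 13 (1.32%). The same reads were split 57.3% C and 27.3% T in WT libraries and 56.1% C and 30.04% T in NS-KO libraries. Over all leader reads the share differed between genotypes by less than its spread, with means of 34.9% ± 2.22 (SD, n = 6) in WT and 35.9% ± 2.79 (SD, n = 6) in NS-KO. Whether such bases were added to the RNA or misread was not tested.

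**Figure D2:**
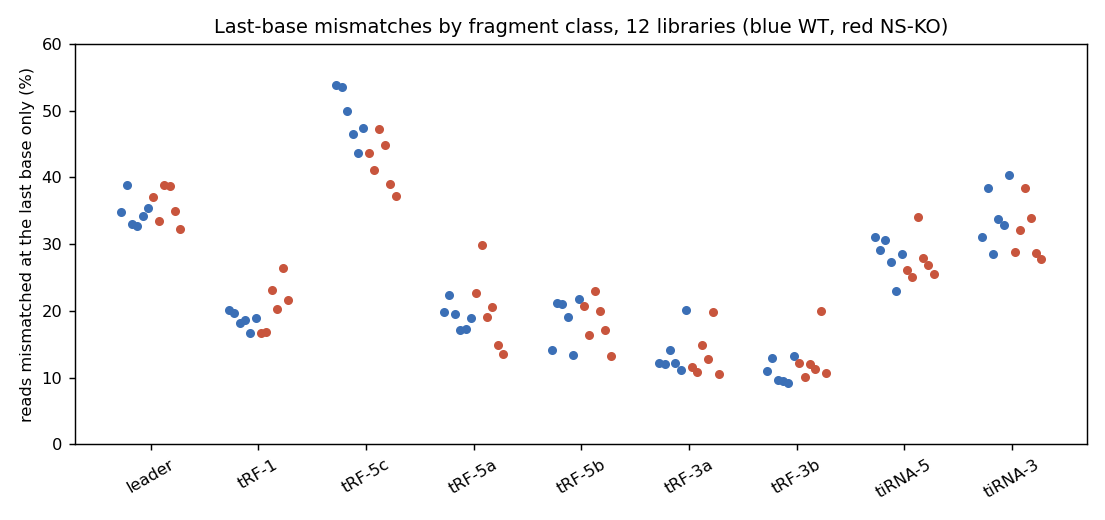
Share of reads (%) whose only mismatch is on the last base, for leader reads and 8 other fragment classes, with 1 point per library (blue WT, red NS-KO). Leader reads sit between 32.3% and 38.9%, above tRF-1 and tRF-3a in every library and below tRF-5c in every library. tiRNA-3, at 27.8% to 40.3%, overlaps them.

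The totals behind these counts differed between genotypes. Libraries held 46937 to 275568 reads, and a count of 0 allows up to 3 reads, or 10.9 to 63.9 counts per 1000000 reads (CPM). This bound covers counting error only, as PCR copies could not be removed. tRF-5c made up 60.9% to 71.5% of reads in 5 of 6 WT libraries and 12.5% to 30.4% in NS-KO. WT D3 replicate 1 stood apart from the other WT libraries at 35.6%. The NS-KO D3 libraries held the most distinct sequences of any kind, 32656 and 25470, against 9758 to 16015 in the other 10. A share of all reads therefore moves with tRF-5c, and shares of other totals are given beside it.

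Leader reads took up more of the library when NSun2 was missing. In WT they were 0.0882% and 0.111% of tRNA reads at D0, 0.286% and 0.122% at D3, while D27 gave 0.116% and 0.0708%. In NS-KO the D0 libraries gave 0.422% and 0.637%, the D3 libraries 0.504% and 0.731%, and the D27 libraries 0.439% and 0.501%. Every NS-KO library lay above every WT library, and the highest WT value was that of WT D3 replicate 1. The Wilson 95% interval of that library was 0.251% to 0.325%, and that of the lowest NS-KO library 0.377% to 0.473%. The means were 0.132% ± 0.0776 (SD, n = 6) in WT and 0.539% ± 0.121 (SD, n = 6) in NS-KO, a 4.08-fold ratio. Genotype labels were permuted within days in an exact two-sided test, which gave p = 0.009259, the smallest that its 216 arrangements allow. Without WT D3 replicate 1 the difference of 0.407 percentage points became 0.434.

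The separation was still present when tRF-5c was left out of the total, and was smaller. Leader reads were 0.233% to 0.444% of reads outside tRF-5c in the 6 WT libraries and 0.499% to 0.892% in the 6 NS-KO libraries, a 2.10-fold ratio of means (exact permutation p = 0.009259). Of nuclear precursor reads alone, they were 2.45% to 3.13% in WT and 3.16% to 7.87% in NS-KO (exact permutation p = 0.009259). Of all tRNA reads, leaders other than histidine were 0.0150% to 0.0368% in WT and 0.0524% to 0.0935% in NS-KO (exact permutation p = 0.009259). Of reads outside tRF-5c these groups overlapped, with 39 of 57570 at WT D0 replicate 2 and 26 of 41063 at NS-KO D0 replicate 2.

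Leaders were also set against the 3′ trailers, and over days their part was larger in NS-KO. Both were pooled over all nuclear precursors and not matched by gene, and histidine gave 86.0% of the leader reads. Leaders made up 3.89% and 3.59% of leader and trailer reads at WT D0 and 3.57% and 4.28% at NS-KO D0, so these groups overlapped. At D3 the WT libraries gave 2.75% and 3.40% and the NS-KO libraries 7.56% and 9.43%. At D27 the WT libraries gave 2.93% and 4.31% and the NS-KO libraries 5.17% and 5.47%, so the groups did not overlap at these days. Whether the days differ in this respect was not tested. Over days the means were 3.48% ± 0.583 (SD, n = 6) and 5.91% ± 2.19 (SD, n = 6), with an exact permutation p = 0.0278. This p rose to 0.0556 without either NS-KO D27 library and to 0.167 without D3, where the smallest possible is 0.0556. For leaders other than histidine the same share averaged 0.717% over WT libraries and 0.784% over NS-KO libraries (exact permutation p = 0.713).

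**Figure D3:**
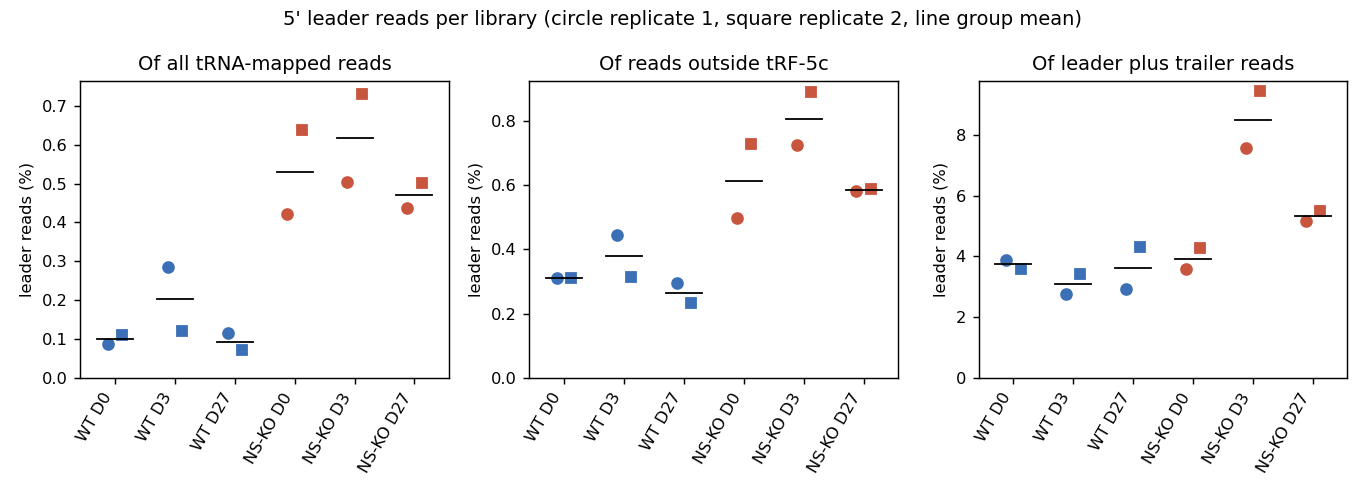
Leader reads in each library as a percentage of all tRNA reads (left), of reads outside tRF-5c (middle) and of leader plus trailer reads (right), by genotype and day, with lines at group means of 2 libraries. In the left and middle panels the 6 NS-KO libraries lie above the 6 WT libraries; in the right panel D0 overlaps and the NS-KO D3 libraries are highest, at 7.56% and 9.43%.

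Leaders were also set against uncut reads, both pooled over all nuclear precursors and not matched by gene, and their pooled part was larger in NS-KO. Leader reads were 38.4% to 48.4% of leader and uncut reads in WT libraries and 46.8% to 61.5% in NS-KO libraries, with 1 WT library inside the NS-KO range. The means were 42.6% ± 3.25 (SD, n = 6) and 53.9% ± 5.57 (SD, n = 6), with an exact permutation p = 0.009259. Within histidine the WT mean was 74.3% and the NS-KO mean 78.2% (exact permutation p = 0.0463). Within the other isodecoders the means were 15.4% and 16.9% (exact permutation p = 0.472). Histidine made up 80.5% ± 4.78 (SD, n = 6) of leader reads in WT and 87.4% ± 2.64 (SD, n = 6) in NS-KO, and the part of this mix in the pooled value was not tested.

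A slightly larger part of histidine leader reads was aligned up to −1 in NS-KO, with reads mismatched at the last base included. Whether this holds among matching reads alone was not tested. Of all leader reads, 61.7% to 71.3% ended at −1 in WT and 67.6% to 78.5% in NS-KO. The difference of 8.13 percentage points had an exact permutation p = 0.009259. For histidine leaders alone the share was 77.7% ± 4.02 (SD, n = 6) in WT and 82.1% ± 3.29 (SD, n = 6) in NS-KO, a difference of 4.45 points (exact permutation p = 0.009259). Leaders of other isodecoders ended there in 15.5% and 14.9% of reads (exact permutation p = 0.843). The mean length of histidine leaders was 16.6 nt in WT and 16.7 nt in NS-KO.

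More distinct leader sequences passed a CPM of 20 in NS-KO, although this threshold is a different number of reads in each library. It equals 2 to 6 reads in WT and 1 to 5 reads in NS-KO, where a single read was enough in D0 replicate 2 and in D27 replicate 1. WT libraries gave 7 and 9 sequences at D0, 26 and 10 at D3, then 12 and 7 at D27. NS-KO libraries gave 30 and 83 at D0, 31 and 54 at D3, then 80 and 31 at D27 (exact permutation p = 0.009259). With every library thinned to the smallest, 46937 reads, the numbers were 24.6 to 58.2 in WT and 69.3 to 117 in NS-KO, on average over 20 copies. With libraries thinned to 35341 reads outside tRF-5c they were 48.5 to 65.8 and 65.1 to 111, so the ranges just met. Without any threshold, where depth differs, 74 to 97 sequences were seen in WT and 80 to 253 in NS-KO (exact permutation p = 0.167).

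To compare single tRNAs, reads were summed by subtype and isodecoder and all sums were fitted together with limma on log2 CPM, with TMM factors that set the typical sum equal between libraries. Of 45 isodecoders, the leader sums of 4 reached the minimum of 70.4 CPM in 2 libraries and were fitted. Over days, 2 of these 4 were higher in NS-KO at an adjusted p under 0.05, where 35.9% of all 359 sums were called, 71 higher and 58 lower. Asp-GTC, called with His-GTG, reached the minimum in NS-KO libraries only, so the 2 of 4 is an account of the members and is read against nothing. With every sum that had a read fitted, so that no minimum chose the members, 3 of 45 leader sums were called over days against 11.0% of all 1071 sums. These were His-GTG, Asp-GTC and Thr-TGT, all higher in NS-KO, and Thr-TGT had only 4 reads in all. The 26 fitted tRF-1 sums of the first fit gave 12 higher and 0 lower. The median log2 difference over all sums was 0.08. With library size as the only scaling it moved to 0.93, with 205 sums higher and 18 lower, and 2 leader sums were called. The same change of scaling took the share of higher calls from 29.5% to 96.1% at D0, from 69.1% to 71.8% at D3 and from 19.2% to 94.1% at D27. With TMM factors from sums outside tRF-5c it was 95.2%, 90.9% and 89.8% at these days, so direction is relative to the scaling.

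Histidine leaders had the most reads of the 45 isodecoders in every library. Their WT levels were 732 and 873 CPM at D0, 2490 and 977 at D3, then 939 and 515 at D27. In NS-KO they stood at 3629 and 5816 CPM at D0, 4520 and 6377 at D3, then 3683 and 4329 at D27. All 6 NS-KO libraries were above all 6 WT libraries. The log2 difference over days was 1.30 ± 0.15 (SE), with an adjusted p = 0.000228 from limma. It was 0.99 ± 0.26 (SE) at D0 (adjusted p = 0.0386), 1.93 ± 0.26 (SE) at D3 (adjusted p = 0.000295) and 0.97 ± 0.26 (SE) at D27 (adjusted p = 0.05001). The value at D0 lost its call when any one of the 4 D0 libraries or WT D3 replicate 1 was left out, with a log2 difference of 0.71 to 1.28. That call was lost as well with every sum that had a read (log2 1.19, adjusted p = 0.0760). With library size as the only scaling the difference over days was 2.26. tRF-1 of His-GTG had a log2 difference of 0.50 ± 0.19 (SE) over days (adjusted p = 0.0621) and of 1.23 ± 0.33 (SE) at D3 (adjusted p = 0.0179). This sum leaves out part of the trailer reads of these genes, of which tRNA-His-GTG-2-2 alone had 2561 with any listed row there. All histidine trailers were therefore not compared with the leaders.

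Aspartate leaders were also higher, at far lower counts. WT libraries held 15.0 and 49.5 CPM of Asp-GTC leaders at D0, 61.3 and 15.5 at D3, then 70.2 and 21.8 at D27. In NS-KO they had 141 and 128 CPM at D0, 145 and 369 at D3, then 298 and 226 at D27. On this CPM scale again no NS-KO library fell into the WT range, and WT libraries held 3 to 11 reads each. After TMM scaling the ranges overlapped, with a log2 CPM of 6.74 at WT D27 replicate 1 and of 6.72 and 6.52 at NS-KO D0. The log2 difference was 1.37 ± 0.29 (SE) over days (adjusted p = 0.00428) and 2.51 ± 0.50 (SE) at D3 (adjusted p = 0.00384). The values were 1.38 over days (adjusted p = 0.00640) and 2.36 at D3 (adjusted p = 0.00818) with every sum that had a read. The call over days was lost without D3 (log2 0.83, adjusted p = 0.0871), and the call at D3 without NS-KO D3 replicate 2 (log2 1.77, adjusted p = 0.0756). tRF-1 of Asp-GTC, a sum not matched to the leaders by gene, differed by 2.47 ± 0.27 (SE) over days (adjusted p = 0.000199). For tRNA-Asp-GTC-1-5 alone, tRF-1 differed by 1.66 ± 0.29 (SE) over days and the leader by 1.34 ± 0.33 (SE). At D3 the values for this gene were 1.89 ± 0.50 (SE) and 2.34 ± 0.57 (SE). Whether leader and tRF-1 differ in this respect was not tested.

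Lysine and tyrosine leaders did not pass the test over days. Lys-TTT leaders had 25.5 to 85.9 CPM in WT and 21.3 to 110 CPM in NS-KO, with a log2 difference of −0.27 ± 0.28 (SE, adjusted p = 0.471). tRF-1 of Lys-TTT had 0.97 ± 0.25 (SE, adjusted p = 0.0116). Tyr-GTA leaders had 22.5 to 110 CPM in WT and 42.6 to 56.5 CPM at NS-KO D0 and D3, but 234 and 226 CPM in the 2 NS-KO D27 libraries. Their log2 difference over days was 0.04 ± 0.21 (SE, adjusted p = 0.877), and 0.84 with TMM factors from outside tRF-5c (adjusted p = 0.0251). The other isodecoders had fewer than 30 leader reads each over all libraries. Among them Thr-AGT had 29, Glu-CTC 27, Val-AAC 19, Ala-AGC 16, Lys-CTT 16 and Arg-TCT 13, and 24 isodecoders had 5 or fewer.

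At single days the leader sums were called as follows. At D0 only His-GTG of the 4 was called, against 12.3% of all sums, and at D3 His-GTG and Asp-GTC, against 27.0%. With every sum that had a read fitted, 0 of 45 were called at D0, against 1.40%, and 3 of 45 at D3, against 8.03%. The 3 were His-GTG, Asp-GTC and Ser-AGA, the last with 3 reads in all. At D27 limma called 0 of 4, with 3 at an unadjusted p under 0.05, against 7.24% of all sums called. Of the 3, His-GTG (log2 0.97) and Tyr-GTA (log2 1.12) were higher in NS-KO and Lys-TTT (log2 −1.35) was lower. Voom weights called 1 at D27, and library size as the only scaling called 3.

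In WT livers few sums passed the threshold after CCl4, with 2 libraries in each group. The WT D3 libraries differed from each other, with tRF-5c at 35.6% and 61.5% of reads. The median log2 difference of all sums at D3 was −0.10 with TMM and 0.72 with library size as the only scaling. D3 against D0 in WT gave 0 of 4 leader sums with limma and 0 with voom weights, with 0 at an unadjusted p under 0.05, and 0.279% of all sums were called. D27 against D0 in WT gave 0 of 4, again 0 unadjusted and 0 with voom weights, with 0.00% of all sums. His-GTG leaders differed by 0.03 ± 0.26 (SE) on the log2 scale at D3 and by −0.24 ± 0.26 (SE) at D27. In NS-KO, D3 against D0 called His-GTG alone, at 0.97 ± 0.26 (SE, adjusted p = 0.0231), against 20.9% of all sums. That call depended on the scaling, as it was lost with library size only (log2 0.22, adjusted p = 0.798) and with TMM outside tRF-5c (log2 0.75, adjusted p = 0.259). It was lost as well with a minimum count of 3 in the filter (log2 0.67, adjusted p = 0.148) and with every sum that had a read (log2 0.66, adjusted p = 0.265). It was also lost without any one of 7 libraries, which were both WT D0 libraries, WT D3 replicate 2, both WT D27 libraries, NS-KO D0 replicate 1 and NS-KO D3 replicate 2 (log2 0.48 to 0.70). D27 against D0 in NS-KO gave 0 of 4 with limma and voom weights, 1 unadjusted, against 0.279% of all sums. The interaction of genotype and D3 gave 0 of 4, with 2 unadjusted and 0 with voom weights, against 10.3% of all sums. The interaction with D27 gave 0 of 4, with 1 unadjusted and 0 with voom weights, against 0.00%.

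Because leaders differ between genes, histidine leaders could be followed gene by gene. The sums by precursor gene were fitted in the same way over 401 sums, a step chosen after the data had been seen. Leader sums of 9 of 155 genes were fitted. tRNA-His-GTG-2-4 and tRNA-His-GTG-2-5 reached the minimum of 70.4 CPM only in the NS-KO D3 libraries, and tRNA-Asp-GTC-1-5 only in NS-KO libraries, so their entry into the fit depended on the group in which they were high. The counts over the 9 are therefore an account of the members and are read against nothing. Over days 7 of the 9 were higher in NS-KO and 0 lower (41.1% of all gene sums called), 1 was called at D0 (12.2%), 6 at D3 (29.4%) and 0 at D27 (8.73%), where 4 passed an unadjusted p under 0.05 and voom weights called 0. With every sum that had a read fitted, so that no minimum chose the members, 6 of 155 leader genes were called over days and 6 at D3, all higher in NS-KO. In each case 6.66% of all 1862 sums were called. Both times the 6 were tRNA-Asp-GTC-1-5 and, of histidine, tRNA-His-GTG-1-1, tRNA-His-GTG-2-1, tRNA-His-GTG-2-3, tRNA-His-GTG-2-4 and tRNA-His-GTG-2-5. Reads under 14 nt were not kept, so a leader that starts nearer than that to the mature tRNA was not seen. Of the 56 uncut reads of tRNA-His-GTG-2-4, 17 started at −13. Values are therefore compared between libraries for each gene, and not between genes.

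The genes of the chromosome 2 cluster held most leader reads. tRNA-His-GTG-2-1 stood at 323 and 477 CPM at WT D0, 1472 and 579 at WT D3, and 447 and 287 at WT D27. In NS-KO it stood at 2457 and 3963 CPM at D0, 2204 and 2435 at D3, then 1682 and 2121 at D27. On this CPM scale, which moves with tRF-5c, every NS-KO library lay above every WT library. Its log2 difference was 1.17 ± 0.15 (SE) over days (adjusted p = 0.000288), and 1.30 at D0 (adjusted p = 0.0139), 1.42 at D3 (adjusted p = 0.00214) and 0.78 at D27 (adjusted p = 0.0908). The D0 call was lost without NS-KO D0 replicate 2 (log2 1.04, adjusted p = 0.112) and the D3 call with library size only (log2 1.31, adjusted p = 0.0828). D3 against D0 within NS-KO was 0.35 ± 0.27 (SE, adjusted p = 0.392).

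tRNA-His-GTG-2-3, in the same cluster, did not pass the test at D0 and was higher in NS-KO at D3. It stood at 263 and 229 CPM at WT D0, 822 and 259 at WT D3, and 345 and 167 at WT D27. In NS-KO it stood at 523 and 1023 CPM at D0, 1454 and 2717 at D3, then 1533 and 1808 at D27. On this CPM scale the NS-KO libraries lay above the WT libraries at every day, D0 included. After TMM scaling the log2 difference between genotypes was −0.09 ± 0.37 (SE) at D0 (adjusted p = 0.948) and 2.17 ± 0.37 (SE) at D3 (adjusted p = 0.00116). The interaction of genotype and D3 was 2.27 ± 0.53 (SE, adjusted p = 0.0159), but 0.55 with library size only (adjusted p = 0.620), 1.28 with TMM outside tRF-5c (adjusted p = 0.183) and 1.96 with every sum that had a read (adjusted p = 0.166). tRNA-His-GTG-2-2 had 7.26 to 76.6 CPM in WT and 86.9 to 192 CPM in NS-KO, with a log2 difference of 0.94 ± 0.33 (SE) over days (adjusted p = 0.0404). That call was lost with a prior count of 0.5 (adjusted p = 0.0521), with every sum that had a read (adjusted p = 0.0937) and without any one of 8 libraries, which were WT D0 replicate 2, WT D3 replicate 1, WT D27 replicate 2, NS-KO D27 replicate 1 and all 4 NS-KO libraries of D0 and D3 (log2 0.74 to 1.01).

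On chromosome 3, 4 genes gave most of their leader reads at NS-KO D3. tRNA-His-GTG-2-5 had 47 and 46 reads in these 2 libraries and 0 to 2 reads in each of the other 10. tRNA-His-GTG-2-4 had 37 and 30 reads there and 0 to 2 elsewhere. tRNA-His-GTG-1-1 had 13 and 16 reads there and 0 in every other library. tRNA-His-GTG-3-1 had 3 and 7 reads there and 1 read elsewhere, in WT D3 replicate 1. These 4 genes were grouped after their values had been seen, and together they gave 199 reads at NS-KO D3 and 14 in the other 10 libraries. They made up 9.99% and 12.2% of histidine leader reads in the NS-KO D3 libraries and 0% to 1.41% in the others.

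Against WT D3, tRNA-His-GTG-2-4 was at least 7.70-fold higher and tRNA-His-GTG-1-1 at least 3.52-fold higher, with 0 reads in WT D3 set to the floor of 3 reads per library. For tRNA-His-GTG-2-5, with 93 reads against 1 after pooling the 2 libraries of each group, the ratio was 73.3 with an exact 95% counting interval of 12.8 to 2926. The floor and this interval cover counting error only and leave out the spread between libraries. When every sum that had a read was fitted, the log2 difference at D3 was 3.90 ± 0.47 (SE, adjusted p = 6.49e-05) for tRNA-His-GTG-2-5, 3.72 ± 0.43 (SE, adjusted p = 4.18e-05) for tRNA-His-GTG-2-4 and 2.67 ± 0.42 (SE, adjusted p = 0.000730) for tRNA-His-GTG-1-1, values that depend on the prior count. In that fit the interaction of genotype and D3 called these 3 of 155 leader genes, against 1.45% of all sums. It was 3.22 ± 0.67 (SE, adjusted p = 0.0187) for tRNA-His-GTG-2-5, 3.01 ± 0.61 (SE, adjusted p = 0.0143) for tRNA-His-GTG-2-4 and 2.67 ± 0.60 (SE, adjusted p = 0.0347) for tRNA-His-GTG-1-1. D3 against D0 in NS-KO called the 3 and tRNA-His-GTG-2-3, against 5.32%. With the minimum, D3 against D0 in NS-KO called tRNA-His-GTG-2-3 (log2 1.42 and adjusted p = 0.0595 with library size only), tRNA-His-GTG-2-4 and tRNA-His-GTG-2-5, where 24.7% of all gene sums were called. The interaction called these too, where 12.7% were called, and leaving out either NS-KO D3 library removed tRNA-His-GTG-2-4 and tRNA-His-GTG-2-5 from that fit. These libraries also held the most distinct sequences of all kinds, as given above, and the part of this in the gene values was not tested.

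Other reads of these genes were also most numerous at NS-KO D3. tRF-1 reads of tRNA-His-GTG-2-4 numbered 119 and 47 at NS-KO D3 and 0 to 10 in the other libraries, with the 10 reads of NS-KO D27 replicate 1 equal to 213 CPM. Its uncut reads numbered 20 and 19 there and 0 to 4 elsewhere. Uncut reads of tRNA-His-GTG-2-5 numbered 12 and 8 there and 0 to 2 elsewhere. Of the 49 fitted tRF-1 gene sums, 12 had an interaction of genotype and D3 past the threshold, all 12 positive, but 7 of 15 were positive with library size only and 8 of 11 with TMM outside tRF-5c. Over all gene sums the positive calls were 47 of 51 with TMM, 25 of 97 with library size only and 31 of 54 with TMM outside tRF-5c, and the median interaction was 0.25, −1.32 and −0.66, so the direction of an interaction is relative to the scaling.

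**Figure D4:**
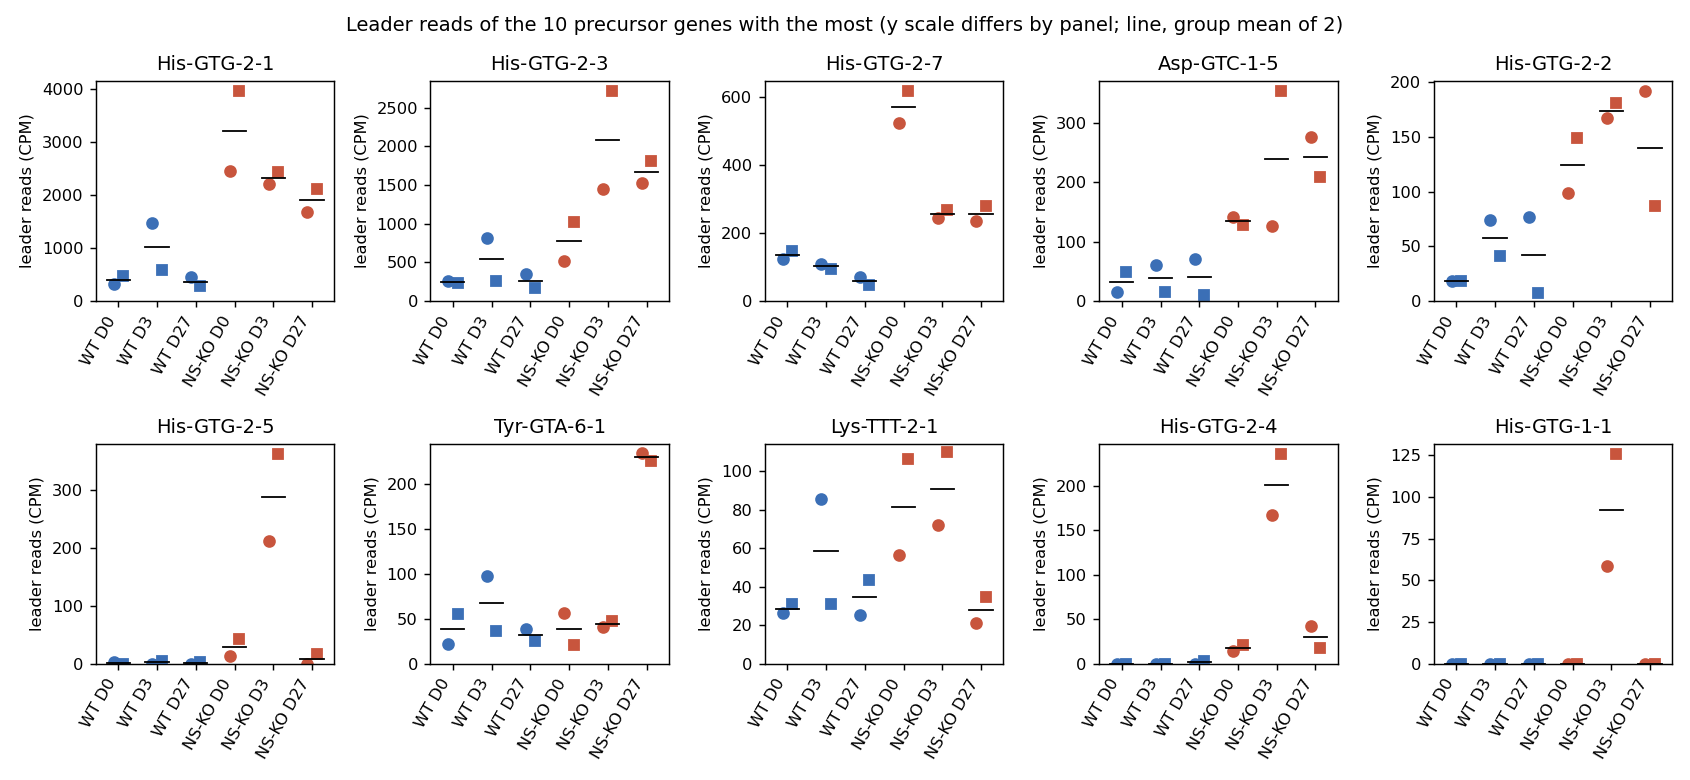
Leader reads (CPM) of the 10 precursor genes with the most leader reads, by genotype and day, with 1 point per library (circle replicate 1, square replicate 2), lines at group means of 2 and a separate scale in each panel. tRNA-His-GTG-2-1 is high in all NS-KO groups, whereas tRNA-His-GTG-2-5, tRNA-His-GTG-2-4 and tRNA-His-GTG-1-1 have 0 to 2 reads in each library outside NS-KO D3.

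tRNA-His-GTG-2-7, the fifth histidine gene of the cluster, had leader reads in every library. It stood at 124 and 149 CPM at WT D0, 110 and 93.1 at WT D3, and 70.2 and 47.2 at WT D27. In NS-KO it stood at 523 and 618 CPM at D0, 244 and 267 at D3, then 234 and 278 at D27. Its log2 difference was 0.71 ± 0.21 (SE) over days (adjusted p = 0.0201), which was lost without WT D3 replicate 1 (log2 0.54, adjusted p = 0.0501) and with every sum that had a read (log2 0.72, adjusted p = 0.0637). At D3 it was 1.28 ± 0.36 (SE, adjusted p = 0.0200). That call was lost with library size only (log2 1.22, adjusted p = 0.203), with every sum that had a read (log2 1.17, adjusted p = 0.0887) and without WT D3 replicate 1 (log2 0.78, adjusted p = 0.188), NS-KO D3 replicate 1 (log2 1.34, adjusted p = 0.0667) or NS-KO D3 replicate 2 (log2 1.10, adjusted p = 0.103). Its interaction with D3 was 0.91 ± 0.51 (SE, adjusted p = 0.296), and D3 against D0 in NS-KO was −0.35 ± 0.36 (SE, adjusted p = 0.526).

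Outside histidine, 3 genes had enough leader reads. tRNA-Asp-GTC-1-5 carried 148 of the 159 Asp-GTC reads and followed the isodecoder, with a log2 difference of 1.34 ± 0.33 (SE) over days (adjusted p = 0.00824) values of 1.34 over days (adjusted p = 0.0156) and 2.24 at D3 (adjusted p = 0.0222) with every sum that had a read, and a call at D3 that was lost without NS-KO D3 replicate 2 (log2 1.54, adjusted p = 0.157). Its reads started at −39 in 55.4% and ended at −1 in 2.70%, so they cover the far end of the leader. tRNA-Lys-TTT-2-1 (chr7:28793988-28794060, named n-TKctt24 in RefSeq, within Rinl) had 83 reads spread over 61 sequences, none of which ended at −1, and a difference that did not pass at any day. tRNA-Tyr-GTA-6-1 (chr2:22589649-22589715, within Myo3a) had 87 reads in 63 sequences. It had 21.3 to 98.1 CPM in the other 10 libraries and 234 and 226 CPM at NS-KO D27. Outside NS-KO D27 it reached the minimum in 1 library, so its entry into the fit rested on that group. D27 against D0 in NS-KO was 2.02 ± 0.40 (SE, adjusted p = 0.0393), where 0.998% of all gene sums were called. This call was lost with every sum that had a read (log2 1.92, adjusted p = 0.160), with voom weights (adjusted p = 0.0684), with a replicate block (adjusted p = 0.0723) and without any single library.

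**Figure D5:**
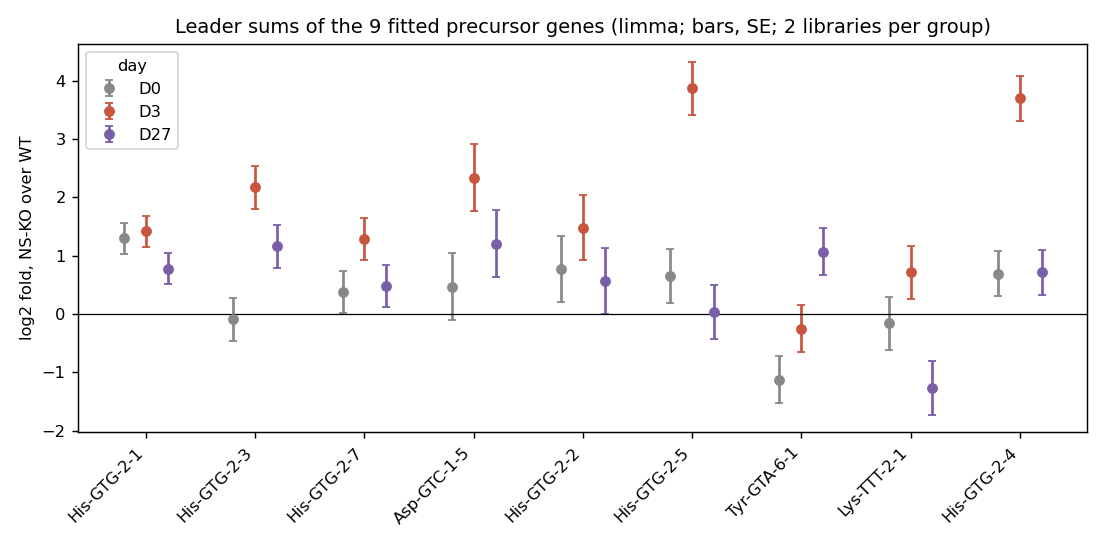
Log2 difference of leader sums, NS-KO over WT, at D0, D3 and D27 for the 9 fitted precursor genes, with standard errors from limma (2 libraries per group). tRNA-His-GTG-2-1 is above 0 at all days, while tRNA-His-GTG-2-5 and tRNA-His-GTG-2-4, which reached the minimum for the fit only at NS-KO D3, stand at 3.87 and 3.70 at D3.

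Single sequences were the least certain level. Of 158 leader sequences with a CPM of at least 20 in any library, 12 were higher and 0 lower in NS-KO over days by limma, where 5.87% of 22065 sequences of all kinds were called. Of the 158, 130 reached that CPM in NS-KO libraries only, and so did 7 of the 12, 3 of them at NS-KO D3 alone, so the 12 is an account of the members and is read against nothing. The most frequent, AGGTCCCTGGTAGCTC of tRNA-His-GTG-2-1 with 556 reads, had 19 to 37 reads in WT libraries and 21 to 132 in NS-KO libraries, and a log2 difference of 1.37 ± 0.31 (SE, adjusted p = 0.0237). The form that differs from the gene by C16T, counted from the 5′ end of the read, had 289 reads and a difference of 1.27 ± 0.31 (SE, adjusted p = 0.0327), and the form with C16A had 1.06 ± 0.29 (SE, adjusted p = 0.0488). The form without its last base, AGGTCCCTGGTAGCT with 268 reads, had 0.77 ± 0.34 (SE, adjusted p = 0.217). GTGGCGTTCCGGTAGCTC of tRNA-His-GTG-2-3, with 472 reads, had 1.16 ± 0.37 (SE, adjusted p = 0.0886). TGCTTGCCCGGTGGCTC of tRNA-His-GTG-2-7, with 106 reads, had 0.71 ± 0.30 (SE, adjusted p = 0.196). The 12 most frequent leader sequences, all from these 3 genes, held 58.1% of leader reads. The count of 12 was 0 to 5 without any one WT library, 54 without NS-KO D0 replicate 1, 34 without NS-KO D3 replicate 1 and 56 without NS-KO D27 replicate 2, and 35 with voom weights.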

How the data were processed

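The authors trimmed reads with cutadapt, checked them with FastQC and used Bowtie to place reads of 14 to 40 nt, first on mature tRNAs and then on precursors, tolerating 1 mismatch. Tool versions are not given in the sources used here. Whole-number read counts for each sequence in each library fill the deposited table, and these equalled the counts in the 12 library files for every sequence. Each sequence was counted once and assigned by its first listed row. The count unit was refused for this table because of its text lines, so limma was used in place of a count model. The libraries of a group are independent biological replicates per the study's methods, and a legend of the study gives 2 mice for these data.

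Sums by subtype and isodecoder, and by precursor gene, were fitted with limma 3.58.1 (trend) on log2 CPM with TMM factors (0.444 to 1.83 for isodecoder sums), a prior count of 2 and a mean for each of the 6 groups. Sums needed 10 reads in all and, in 2 libraries, the CPM of 10 reads in the median library. Benjamini-Hochberg adjustment ran over all sums or, for single sequences, over all with a CPM of at least 20 in any library. Shares and numbers were tested by exact two-sided permutation of genotype within days. In simulated data, the fits were tested for recovery of known changes.

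Members and lists were chosen with earlier results of these data known. The genes named are the 10 isodecoders, 10 precursor genes and 12 sequences with the most leader reads, all called leader sums and their tRF-1 sums. Chromosome 3 genes were grouped after their values were seen. Same-numbered replicates did not deviate together (correlations −0.28 to 0.44, 2 of 15 pairs above 0.1) and were not paired. Scripts ran under R 4.3.3 and Python 3.11.15 with scipy 1.17.1, pandas 2.3.3 and numpy 2.4.6.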

Additional observations from a re-analysis of the deposited data

Results flagged for a closer look

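The interaction of genotype and D3, which sets the difference between NS-KO and WT at D3 against that at D0, passed the threshold for the leader sums of 3 precursor genes in the limma fit over precursor gene sums. The interaction was 3.21 on the log2 scale for tRNA-His-GTG-2-5 (adjusted p = 0.00820), 3.01 for tRNA-His-GTG-2-4 (adjusted p = 0.00518) and 2.27 for tRNA-His-GTG-2-3 (adjusted p = 0.0159). The first 2 reached the minimum for that fit only in the NS-KO D3 libraries. With every sum that had a read fitted, the values were 3.22 (adjusted p = 0.0187), 3.01 (adjusted p = 0.0143) and, for tRNA-His-GTG-2-3, 1.96 (adjusted p = 0.166). For tRNA-His-GTG-2-5 and tRNA-His-GTG-2-4 it was 2.81 and 2.75 with library size only (adjusted p = 0.0175 and 0.0186), and it missed the threshold with a prior count of 0.5 (adjusted p = 0.0998 and 0.0561). For tRNA-His-GTG-2-5 it also missed it with voom weights (adjusted p = 0.0561) and without WT D0 replicate 1 (2.74, adjusted p = 0.0666). For tRNA-His-GTG-2-3 it missed the threshold with library size only, where it was 0.55 (adjusted p = 0.620), and without any one of 5 libraries, which were both WT D0 libraries, WT D27 replicate 2, NS-KO D0 replicate 1 and NS-KO D3 replicate 2 (1.37 to 2.06, adjusted p up to 0.180). The NS-KO D3 libraries also held the most distinct sequences of all kinds (32656 and 25470), and the part of this in these results was not tested.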

How the results depend on the processing

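The higher leader share of tRNA reads in NS-KO kept its direction and its side of the threshold under all totals, match and listing choices tried and without each library (0.369 to 0.445 percentage points). Some alternatives were chosen after the data had been seen. Without D3, where no p under 0.0556 is possible, the leader share was higher by 0.403 points, the share of leader and trailer reads by 0.943, the share ending at −1 by 8.40 and the share of leader and uncut reads by 9.69. Without histidine leaders, the share of leader and trailer reads differed by 0.0666 points, that of leader and uncut reads by 1.52 and the share ending at −1 by −0.624, in the opposite direction. With histidine kept, the number of sequences with at least 1 read differed by 51 (exact permutation p = 0.167). Leaving out each library in turn gave 2.12 to 2.75 points for leader and trailer reads, 30.8 to 48.5 for the number of sequences, 6.85 to 9.41 points for reads ending at −1 and 10.2 to 12.4 points for leader and uncut reads.

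The number of called isodecoder leader sums at D0 was 2 with library size only and with TMM outside tRF-5c, and 0 with every sum that had a read. At D27 it was 3 with library size only and with TMM outside tRF-5c, and 1 with voom weights, with a prior count of 0.5, with perfect matches only and without D3. For D3 against D0 in NS-KO it was 0 with library size only and with TMM outside tRF-5c. Over days it was 1 without D3. Without each library in turn, the counts were 2 over days, 0 to 1 at D0, 1 to 2 at D3, 0 to 1 at D27 and 0 to 2 for D3 against D0 in NS-KO, and 0 in the other 5 comparisons.

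For gene leader sums, counts with library size only and with TMM outside tRF-5c were 5 and 5 at D0, and 6 and 5 at D27. For D27 against D0 in NS-KO the count was 0 with voom weights, a prior count of 0.5, a minimum count of 3, every sum with a read, and the replicate block. The interaction of genotype and D3 gave 1 with a prior count of 0.5. Without each library in turn, counts were 4 to 7 over days, 0 to 1 at D0, 2 to 7 at D3, 0 to 2 at D27, 1 to 3 for D3 against D0 in NS-KO, 0 for D27 against D0 in NS-KO and 0 to 3 for the interaction. The lowest counts over days, at D3 and for the interaction came without an NS-KO D3 library, and the interaction also gave 1 without WT D0 replicate 1. Called single leader sequences numbered 21 with library size only, 35 with voom weights and 0 to 56 without each library. The replicate block called 2 isodecoder sums over days, 7 gene sums and 9 single sequences, and besides tRNA-Tyr-GTA-6-1 it moved no count by over 1.5 times. Causes of these shifts were not tested. Depth limits the gene values, since a gene with 0 reads may stand at up to 10.9 to 63.9 CPM.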
